A study of Mus musculus with 4 samples.

Results

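The genes described here encode the core histones H2A, H2B, H3 and H4, around which DNA is wrapped, and the linker histone H1. They were chosen by name: genes whose older symbol begins with Hist and a cluster number, genes whose current symbol marks a clustered core histone or an H1 histone, and the replacement variants H2A.X, H2A.Z, macroH2A1 and H3.3. Of the 80 mouse genes that the names pick out in RefSeq, 39 had an array feature (a set of probes summarised to a single value) annotated to that gene alone, out of 19938 genes measured in this way. A further 39 histone genes were present only on features that the annotation gives to several genes, which are described by feature further on. The last 2, H1f0 and H2ac14, were not analysed here.

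RNA was measured with Affymetrix Mouse Gene 1.0 ST arrays in 4 cultures of differentiating erythroid cells, 2 in each group. MEL cells are a mouse erythroleukemia line; they grew in DMEM with serum, L-glutamine and puromycin, and differentiation was started with 17b-estradiol and ran for 48 hours. The ES-EP line consists of erythroid progenitors derived from mouse embryonic stem cells; they were expanded in StemPro34 with stem cell factor, human IGF-1, Epogen (erythropoietin) and dexamethasone, a glucocorticoid. Their differentiation lasted 24 hours and used a higher dose of Epogen, insulin and the glucocorticoid antagonist mifepristone. The effects of the line, the inducer, the medium and the length of treatment cannot be told apart. Each group was 1 line grown in duplicate, so a p-value sets the difference against the spread between duplicate cultures, not between lines. That spread was estimated in part from all tested features. Nothing in the labels says how separately the cultures were grown.

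Most histone mRNA is made from intronless genes that lie in clusters, is transcribed in S phase while DNA is copied, and ends in a stem-loop in place of a poly(A) tail. The stem-loop is bound by SLBP, the U7 particle directs the cut at the end of the transcript, and the messages are destroyed when replication stops. Replacement variants come from ordinary genes outside the clusters, carry poly(A) tails and enter chromatin at any time in the cell cycle. Maturing red cell precursors pass through their last divisions and then condense and expel the nucleus. A few clustered genes are known to give a further, polyadenylated message in cells that leave the cycle.

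RefSeq promoters (assembly GRCm38.p6, from 250 bases before to 50 bases after the annotated start) were found for 33 of the 39 genes; H2ax, H2bc21, H2bc4, H2bu1-ps, H3c7 and H4c14 were not matched. Of these 33 promoters, 26 held CCAAT on either strand, or 78.8%, against 37.4% of all 32851 promoters of the same length. The TATA-box core TATAAA was found in 16, or 48.5%, against 13.6% of all promoters, and the shorter TATAA, the first 5 letters of TATAAA, in 21, or 63.6%, against 24.9%. ATTTGCA, part of the octamer that is a textbook element of H2B promoters, was found in 9, or 27.3%, against 4.02%. The E2F-like TTTGGCG was found in 0 of 33, against 1.56% of all promoters. A match describes letters in this window and is no measurement of binding.

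The 9 promoters with ATTTGCA were those of 4 of 5 clustered H2A genes and 5 of 8 clustered H2B genes. None of the clustered H1, H3 and H4 promoters matched, which numbered 5, 2 and 6, and none of the 7 promoters of genes outside the clusters. TATAA was present in 21 of 26 cluster promoters and in 0 of the 7 outside. Clustered H4 promoters held CCAAT in 2 of 6 cases, whereas all 5 of H1, all 5 of H2A, all 8 of H2B and both of H3 held it. The 160 bases before the start are given for 3 H2B genes that were higher, not called and lower in MEL, in that order (H2bc18 at chr3:96269540-96269699, H2bc14 at chr13:21721884-21722043 and H2bc3 at chr13:23746574-23746733, all on the plus strand). They are written 5′ to 3′, with capitals marking the letters of any of these motifs on either strand.
H2bc18: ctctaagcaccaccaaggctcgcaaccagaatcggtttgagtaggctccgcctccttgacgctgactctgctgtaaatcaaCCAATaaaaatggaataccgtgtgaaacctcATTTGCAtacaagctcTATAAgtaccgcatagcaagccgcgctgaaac
H2bc14: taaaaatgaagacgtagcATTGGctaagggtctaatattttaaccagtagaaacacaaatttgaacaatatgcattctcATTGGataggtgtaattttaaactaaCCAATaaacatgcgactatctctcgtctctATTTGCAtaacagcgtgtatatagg
H2bc3: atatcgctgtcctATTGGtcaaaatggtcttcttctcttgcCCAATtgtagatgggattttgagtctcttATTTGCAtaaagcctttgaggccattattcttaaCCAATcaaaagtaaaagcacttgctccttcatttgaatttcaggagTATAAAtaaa

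All 3 of these stretches carried CCAAT and ATTTGCA, which in H2bc18 ended 42 bases before the start, in H2bc14 19 and in H2bc3 84 bases before it. CCAAT and ATTTGCA were thus shared by these examples of an H2B gene higher, not called and lower in MEL. TATAA was marked in H2bc18 and H2bc3 and was absent from H2bc14. Not every H2B promoter held ATTTGCA. It was found in 1 of 2 promoters of H2B genes higher in MEL, 3 of 5 of those lower and 1 of 1 not called. The same stretch follows for the H2A genes H2ac15, higher in MEL (chr13:21753913-21754072, minus strand), and H2ac4, lower in MEL (chr13:23750928-23751087, plus strand), for H3c15, the clustered H3 gene that was higher (chr3:96239128-96239287, minus strand), and for the replacement variant H2az2 (chr11:6444444-6444603, minus strand).
H2ac15: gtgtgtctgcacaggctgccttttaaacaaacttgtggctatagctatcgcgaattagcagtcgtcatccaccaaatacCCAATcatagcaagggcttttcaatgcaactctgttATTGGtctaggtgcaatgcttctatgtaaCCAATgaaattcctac
H2ac4: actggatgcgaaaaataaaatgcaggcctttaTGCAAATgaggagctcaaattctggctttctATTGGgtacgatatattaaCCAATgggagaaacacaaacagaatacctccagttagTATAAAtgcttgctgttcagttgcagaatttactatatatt
H3c15: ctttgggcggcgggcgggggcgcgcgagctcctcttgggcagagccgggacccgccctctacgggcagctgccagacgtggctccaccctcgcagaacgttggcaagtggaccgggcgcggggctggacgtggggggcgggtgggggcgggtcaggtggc
H2az2: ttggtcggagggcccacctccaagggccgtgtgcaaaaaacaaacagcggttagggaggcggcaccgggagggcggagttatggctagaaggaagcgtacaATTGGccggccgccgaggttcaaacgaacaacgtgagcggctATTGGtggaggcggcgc

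In these stretches H2ac15 had 3 CCAAT matches. H2ac4 had CCAAT on both strands, TATAAA, and the octamer letters on the other strand. H2az2 had CCAAT on the other strand only, and H3c15 had none of the motifs. In the longer window used for the counts, H2ac15 also held TATAAA and H3c15 held CCAAT, both outside the stretches printed here. By result, TATAAA was found in 2 of 8 promoters of genes higher in MEL, in 10 of 18 of genes lower and in 4 of 7 of genes that were not called. CCAAT was found in 6 of 8, 15 of 18 and 5 of 7 of the same groups, and ATTTGCA in 1 of 8, 5 of 18 and 3 of 7. These shares are descriptions of few promoters and were given no test.

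The values are log2 intensities made by RMA, whose medians per array lay between 5.78 and 5.91. Over the 39 histone genes the duplicates correlated at 0.998 in MEL and 0.999 in ES-EP, and arrays of different groups at 0.929 to 0.939. Of 16 listed erythroid markers 10 were measured, of which 2 were higher and 8 lower in MEL, against 21.8% and 36.9% of all genes. Their mean was 10.41 and 10.45 on the MEL arrays and 11.49 on both ES-EP arrays. The widest gap was that of Slc4a1 (-5.44), while the others ran from -1.33 (Alas2) to 0.46 (Gata1). The 4 measured megakaryocyte markers averaged 7.71 and 7.64 in MEL against 5.97 and 6.08 in ES-EP. Of these, Pf4 (4.38) and Itga2b (2.22) were higher in MEL, while Gp9 (-0.06) and Vwf (0.06) did not pass. The 4 mast cell markers averaged 3.81 and 3.80 against 5.05 and 4.95, a gap carried mostly by Ms4a2 (-3.52), since the other 3 differed by -0.31 to -0.50. Means of the lymphoid, macrophage, pluripotent and stromal markers lay between 4.41 and 5.81 on all arrays. The part of these cell states in the histone differences was not tested, and in bulk RNA fewer cells of a type cannot be told apart from less RNA per cell.

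Of the 39 histone genes, 11 (28.2%) were higher in MEL and 19 (48.7%) were lower, and 9 did not pass. Passing means a Benjamini-Hochberg adjusted p under 0.05 in limma over all 28944 tested features. Over all 19938 genes, 21.8% were higher and 36.9% were lower. At a difference of at least 2-fold, 7 histone genes (17.9%) were higher and 2 (5.13%) were lower, against 7.38% and 4.93% of all genes. The median difference of the histone genes, MEL minus ES-EP on the log2 scale, was -0.13, against -0.14 for all genes. It was -0.21 without ES-EP culture B, -0.06 after centring and -0.08 after cyclic loess.

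The scaling of the arrays matters for the small differences. The median of all genes moved from -0.14 in the deposited values to -0.02 after quantile normalization, -0.07 after centring on array medians and 0.02 after cyclic loess. Quantile normalization gave 11 histone genes higher and 15 lower, centring gave 12 and 16, and cyclic loess 12 and 14. Over all genes, the higher and lower shares were 26.7% and 28.6% with the first of these scalings, 23.0% and 28.8% with the second and 29.0% and 24.5% with the last. The genes higher by at least 2-fold numbered 7 to 8 under these scalings, and the genes lower by at least 2-fold numbered 0 to 1.

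**Figure D1:**
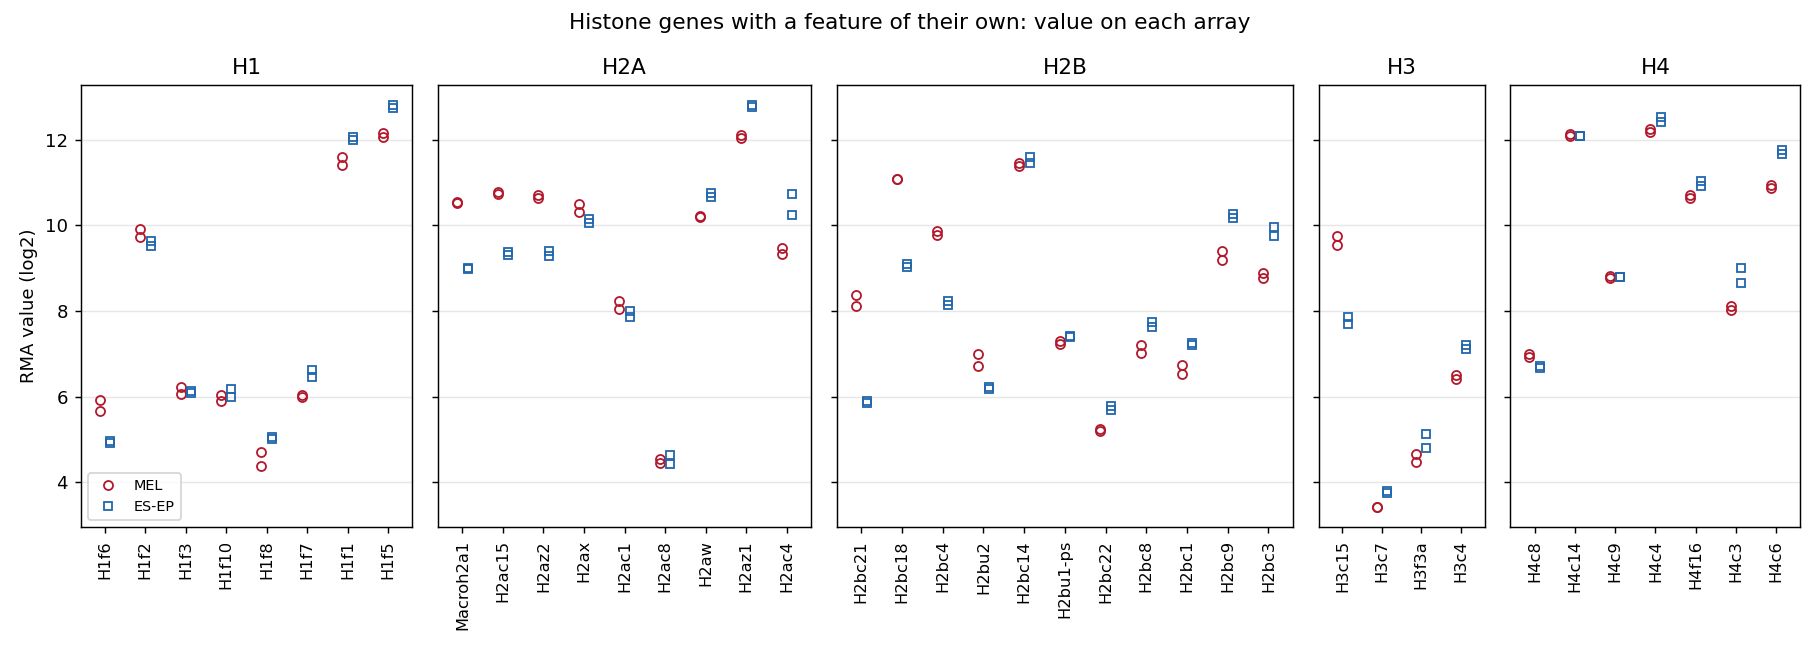
RMA value (log2, vertical axis) of each of the 39 histone genes on the 2 MEL arrays (red circles) and the 2 ES-EP arrays (blue squares), in panels by histone class. Duplicates lie close together, and H2bc21, H2bc18 and H3c15 show the widest gaps upward in MEL, with MEL minus ES-EP differences of 2.37, 2.02 and 1.86. Levels of different genes are not comparable, because each feature has its own probes.

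**Figure D2:**
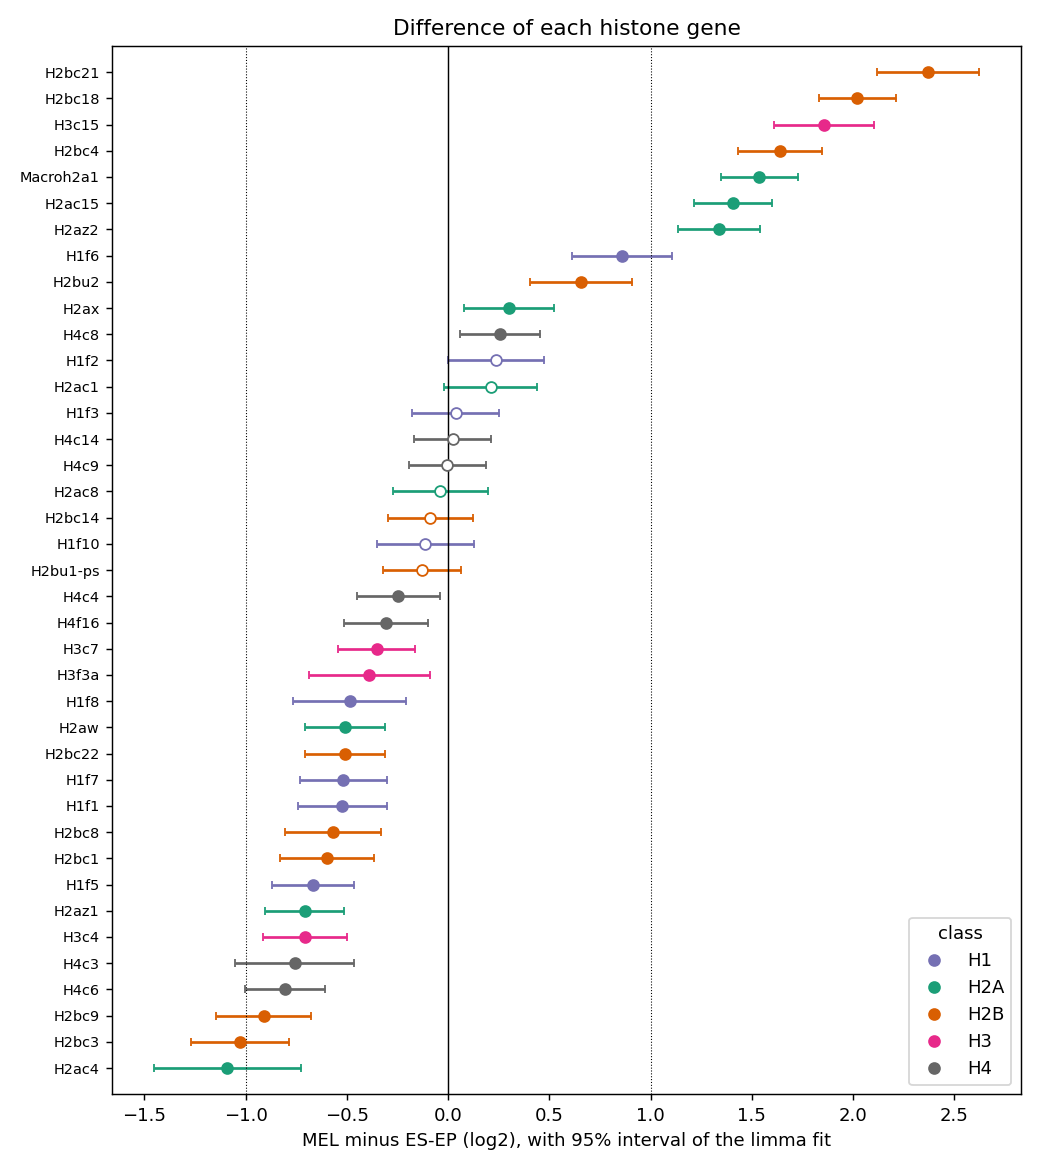
Difference of each histone gene between MEL and ES-EP (log2, horizontal axis) with the 95% interval of the limma fit, ordered by size and coloured by class. Filled points passed at an adjusted p under 0.05, open points did not, and the dotted lines mark a 2-fold difference. The points run from 2.37 for H2bc21 down to -1.09 for H2ac4, and the 7 genes at the top lie beyond the 2-fold line with their whole interval.

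The shares over all genes to set beside each class count below were 21.8% higher and 36.9% lower. H2B genes held the widest span of any class. Of 11 measured, 4 were higher, 5 were lower and 2 did not pass, with a median difference of -0.13 (-0.06 with centring, -0.08 with cyclic loess and -0.27 with quantile normalization). H2bc21 (older symbol Hist2h2be), an H2B gene that is known to be expressed outside S phase as well, had values of 8.11 and 8.37 in MEL and 5.84 and 5.90 in ES-EP. It was 5.17-fold higher in MEL (log2 difference 2.37, SE 0.11, adjusted p 2.88e-06), the largest difference among the 39 genes. H2bc18 (Hist2h2bb), which encodes a core H2B, had 11.08 on both MEL arrays and 9.09 and 9.03 in ES-EP, a 4.06-fold difference (log2 2.02, SE 0.08, adjusted p 1.68e-06). H2bc4 (Hist1h2bc), a core H2B gene of the largest cluster, had 9.77 and 9.87 against 8.23 and 8.13 and was 3.12-fold higher (log2 1.64, SE 0.09, adjusted p 6.85e-06). In all 3 genes the groups stood apart by several times the gap between duplicates.

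The fourth H2B gene that was higher, H2bu2 (Hist3h2ba), differed by 0.66 (adjusted p 0.00173). On the other side, H2bc3 (Hist1h2bb) had 8.77 and 8.90 in MEL and 9.96 and 9.76 in ES-EP, 2.04-fold lower (log2 -1.03, SE 0.10, adjusted p 0.000149). H2bc9 (Hist1h2bh) had 9.40 and 9.19 against 10.25 and 10.16, a difference of -0.91 (adjusted p 0.000232), and H2bc1 (Hist1h2ba), known as the testis H2B, had 6.73 and 6.52 against 7.25 and 7.20, a difference of -0.60 (adjusted p 0.00173). MEL and ES-EP values did not overlap in H2bc3, H2bc9 and H2bc1, which were named for their wide differences, so this adds no separate support. H2bc8 and H2bc22 were lower as well, with differences of -0.57 and -0.51. H2bc14 (-0.09, 95% interval -0.30 to 0.12) and the pseudogene H2bu1-ps (-0.13, interval -0.32 to 0.06) did not pass; H2bu1-ps passed as lower after quantile normalization (-0.27), and H2bc14 was 0.05 after quantile normalization and 0.02 after cyclic loess.

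Among the H2A genes, the clustered and the replacement genes both held members that differed by over 2-fold. Of 9 measured, 4 were higher, 3 lower and 2 did not pass, with a median of 0.21 (0.12 without MEL culture A). H2ac15 (Hist1h2ak), a clustered core H2A gene, had 10.73 and 10.77 in MEL and 9.37 and 9.31 in ES-EP. It was 2.65-fold higher in MEL (log2 1.41, SE 0.08, adjusted p 1.04e-05). H2ac4 (Hist1h2ab), also a clustered core H2A gene, had 9.32 and 9.47 against 10.73 and 10.25 and was 2.13-fold lower (log2 -1.09, SE 0.15, adjusted p 0.000872). The ES-EP duplicates of H2ac4 stood wide apart (SD 0.34, n = 2), and still both lay above both MEL values. Without ES-EP culture A the difference was -0.85 for H2ac4 and -0.93 for H2bc3, so that 0 histone genes were then lower by 2-fold, although both genes still passed.

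The other clustered H2A genes differed little or by less than 2-fold. H2ac1 (Hist1h2aa), the testis H2A that pairs with H2bc1, had 8.23 and 8.05 in MEL and 7.99 and 7.87 in ES-EP. It did not pass (0.21, 95% interval -0.02 to 0.44, adjusted p 0.106), and without MEL culture B its difference was 0.30 with an adjusted p of 0.0487, in a range of 0.0487 to 0.42 over the settings tried. H2ac8 (Hist1h2ae) was dim, with values of 4.44 and 4.54 against 4.43 and 4.63, which overlapped between the groups. H2aw (Hist3h2a) was lower by 1.42-fold (log2 -0.51, adjusted p 0.00184).

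The replacement H2A genes differed in both directions. Macroh2a1 encodes macroH2A1, a histone with a large extra domain that is known for its place on the inactive X chromosome and on silenced genes. It had 10.53 and 10.54 in MEL and 8.99 and 9.01 in ES-EP and was 2.90-fold higher (log2 1.54, SE 0.08, adjusted p 5.79e-06). Both genes for H2A.Z, a variant found at promoters and exchanged by SRCAP and p400 complexes, were measured, and they differed in opposite directions. H2az2 had 10.70 and 10.64 against 9.39 and 9.28, 2.53-fold higher in MEL (log2 1.34, SE 0.09, adjusted p 1.66e-05). H2az1 had 12.03 and 12.10 against 12.80 and 12.76, 1.63-fold lower (log2 -0.71, SE 0.08, adjusted p 0.00033). Its second feature differed by -0.77, with an adjusted p of 0.000202.

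H2ax encodes H2A.X, which is phosphorylated at DNA breaks and whose gene gives both kinds of transcript. It had 10.32 and 10.49 in MEL and 10.14 and 10.06 in ES-EP, a difference of 0.30 (adjusted p 0.0284). The call was lost without MEL culture B (0.22, adjusted p 0.0923), without ES-EP culture A (0.34, 0.0737) and without ES-EP culture B (0.26, 0.163); over all settings the adjusted p ran from 0.00192 to 0.163.

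Of the 4 H3 genes with a feature of their own, 1 was higher and 3 were lower. Their median was -0.37 (-0.17 after quantile normalization and -0.18 after cyclic loess), and it was 0.57 over the 2 genes that remain when dim features are left out. H3c15 (Hist2h3c2), a clustered H3 gene, had 9.54 and 9.74 in MEL and 7.71 and 7.87 in ES-EP. It was 3.62-fold higher (log2 1.86, SE 0.10, adjusted p 8.43e-06). H3c4 (Hist1h3d) had 6.50 and 6.40 against 7.11 and 7.21 and was 1.63-fold lower (log2 -0.71, adjusted p 0.000451). The other H3 features were dim: H3c7 (Hist1h3f) had 3.42 and 3.43 against 3.76 and 3.80, and H3f3a had 4.48 and 4.66 against 5.12 and 4.80. Both passed as lower (-0.35 and -0.39, adjusted p 0.00805 and 0.0335). Values this low lie near or below 4.58, the 25th percentile of the mean signal over tested features.

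The H3c7 call was lost under all 3 scalings and without ES-EP culture B (-0.33, adjusted p 0.0687; range over the settings 0.00343 to 0.0699). The H3f3a call was lost after quantile normalization and cyclic loess and without MEL culture A (-0.30, adjusted p 0.155), MEL culture B (-0.48, 0.0528) or ES-EP culture A (-0.23, 0.227), with a range of 0.0099 to 0.364. H3.3, the replacement H3 that H3f3a and H3f3b encode, was measured brightly on features shared with predicted genes. The 4 features annotated to H3f3a and Gm12657 lay between 10.51 and 11.0002 on the MEL arrays and between 11.92 and 12.22 on the ES-EP arrays. They were lower in MEL with differences of -1.22 to -1.41 (adjusted p at most 1.92e-05), and all 4 were called lower under every other setting that included them. The 2 features annotated to H3f3b and Gm6485 had MEL values of 11.69 to 11.98 and ES-EP values of 12.09 to 12.20, differences of -0.28 and -0.35. Those calls were both lost after centring and without either ES-EP culture, and 1 of them was lost after quantile normalization, after cyclic loess and without MEL culture A. For such features the share of each gene in the signal is not known.

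H4 genes showed small differences apart from 2. Of 7 measured, 1 was higher, 4 were lower and 2 did not pass, with a median of -0.25 (-0.16 after quantile normalization, -0.13 after cyclic loess); no H4 gene differed by 2-fold. H4c6 (Hist1h4f) had 10.93 and 10.87 in MEL and 11.75 and 11.67 in ES-EP, 1.75-fold lower (log2 -0.81, SE 0.08, adjusted p 0.000188). H4c3 (Hist1h4c) had 8.02 and 8.12 against 9.002 and 8.65, 1.69-fold lower (log2 -0.76, SE 0.13, adjusted p 0.00182). H4c14 (Hist2h4) had 12.09 and 12.13 against 12.08 and 12.09 and H4c9 (Hist1h4i) 8.78 and 8.82 against 8.80 on both arrays, so the groups met at 12.09 in H4c14 and overlapped in H4c9. Their 95% intervals, -0.17 to 0.21 and -0.19 to 0.19, leave room for differences of that size in either direction. All these genes encode the same class of core histone, H4.

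The remaining H4 calls were small and depended on the settings. H4c8 (Hist1h4h) had 6.91 and 6.98 in MEL and 6.66 and 6.72 in ES-EP, 0.26 higher (adjusted p 0.0334, range 0.0177 to 0.372). Its call was lost after quantile normalization, with a prior that follows intensity, and without MEL culture B (0.22), ES-EP culture A (0.23) or ES-EP culture B (0.29). H4c4 (Hist1h4d) had 12.18 and 12.25 against 12.52 and 12.40, a difference of -0.25 (adjusted p 0.0461, range 0.000384 to 0.296), and lost its call under all 3 scalings, with the culture letter as a replicate block (adjusted p 0.0557) and without any of the 4 cultures, with differences of -0.21 and -0.28 without MEL A and B and -0.19 and -0.30 without ES-EP A and B. H4f16 (Hist4h4) had 10.72 and 10.64 against 11.04 and 10.93, a difference of -0.31 (adjusted p 0.0208, range 0.000499 to 0.173). It lost its call under all 3 scalings and without MEL culture B (-0.27), ES-EP culture A (-0.25) or ES-EP culture B (-0.36).

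Linker histones bind where DNA enters and leaves the nucleosome, and somatic cells make several H1 subtypes. Of 8 H1 genes measured, 1 was higher, 4 were lower and 3 did not pass, with a median of -0.30 (-0.18 without MEL culture B and after quantile normalization, -0.12 after cyclic loess). H1f5 (Hist1h1b), a replication-dependent subtype, had 12.14 and 12.05 in MEL and 12.80 and 12.73 in ES-EP, 1.59-fold lower (log2 -0.67, SE 0.09, adjusted p 0.000526). H1f1 (Hist1h1a), of the same kind, had 11.58 and 11.41 against 12.05 and 11.99, 1.44-fold lower (log2 -0.52, adjusted p 0.00261). H1f2 (Hist1h1c), a somatic subtype, had 9.72 and 9.92 against 9.53 and 9.64, which did not overlap but did not pass (0.24, 95% interval -0.00 to 0.47, adjusted p 0.0829). It passed as higher under all 3 scalings, with a prior that follows intensity and without MEL culture A (0.34, adjusted p 0.032), in a range of 0.0148 to 0.354.

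H1f3 (Hist1h1d), another somatic subtype, had 6.07 and 6.23 in MEL and 6.14 and 6.08 in ES-EP and did not pass (0.04, interval -0.18 to 0.25; -0.04 without MEL culture B). H1f10, which encodes H1X, had 6.04 and 5.91 against 6.18 and 5.99 (-0.11, interval -0.35 to 0.13, and 0.02 after cyclic loess). The last 3 are germ cell subtypes. H1f6 (Hist1h1t), the testis H1, had 5.92 and 5.67 against 4.91 and 4.97 and was 1.81-fold higher in MEL (log2 0.86, SE 0.11, adjusted p 0.000421). Mean signals of H1f6 and H1f8 were under the median of 5.91 over tested features, at percentiles 40.6 and 29.5. H1f7, a spermatid H1, had 6.04 and 6.00 against 6.62 and 6.46 (-0.52, adjusted p 0.00257), and H1f8, the oocyte H1, had 4.71 and 4.39 against 5.06 and 5.02 (-0.49, adjusted p 0.0106, lost after quantile normalization and cyclic loess, range 0.00328 to 0.0723).

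By position, of 4 Hist2 genes measured, 3 (H2bc21, H2bc18 and H3c15) were higher by over 2-fold, 0 were lower and H4c14 did not pass, with a median difference of 1.94. At a difference of at least 2-fold, 7.38% of all genes were higher and 4.93% lower. Of 23 Hist1 genes, 4 were higher (H2bc4, H2ac15, H1f6 and H4c8), 13 were lower and 6 did not pass, with a median of -0.35; over all genes 21.8% were higher and 36.9% lower. Hist1 thus held genes over 2-fold higher, H2bc4 (1.64) and H2ac15 (1.41), as well as the 2 genes over 2-fold lower. The difference between the clusters was not tested. The 3 Hist3 genes had 1 higher, 1 lower and 1 that did not pass, and the single Hist4 gene, H4f16, was lower.

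In gene order H2bc21 and H3c15 are direct neighbours, and so are H2bc4 and H1f6, which were both higher in MEL. H2bc3 and H2ac4, the genes lower by 2-fold, are neighbours as well. H2bc9, H3c7 and H4c6 follow each other and were all called lower, though the call of the dim H3c7 was lost under all 3 scalings. The next gene, H1f3, did not pass (0.04). Called genes also adjoin genes that did not pass, as H2bu2 (higher) adjoins H2bu1-ps and H2bc1 (lower) adjoins H2ac1. Next to H1f6 lies H4c3, which was lower, so higher and lower genes adjoin within Hist1. Among the 8 genes outside the clusters, 3 were higher and 4 were lower, against 21.8% and 36.9% of all genes.

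**Figure D3:**
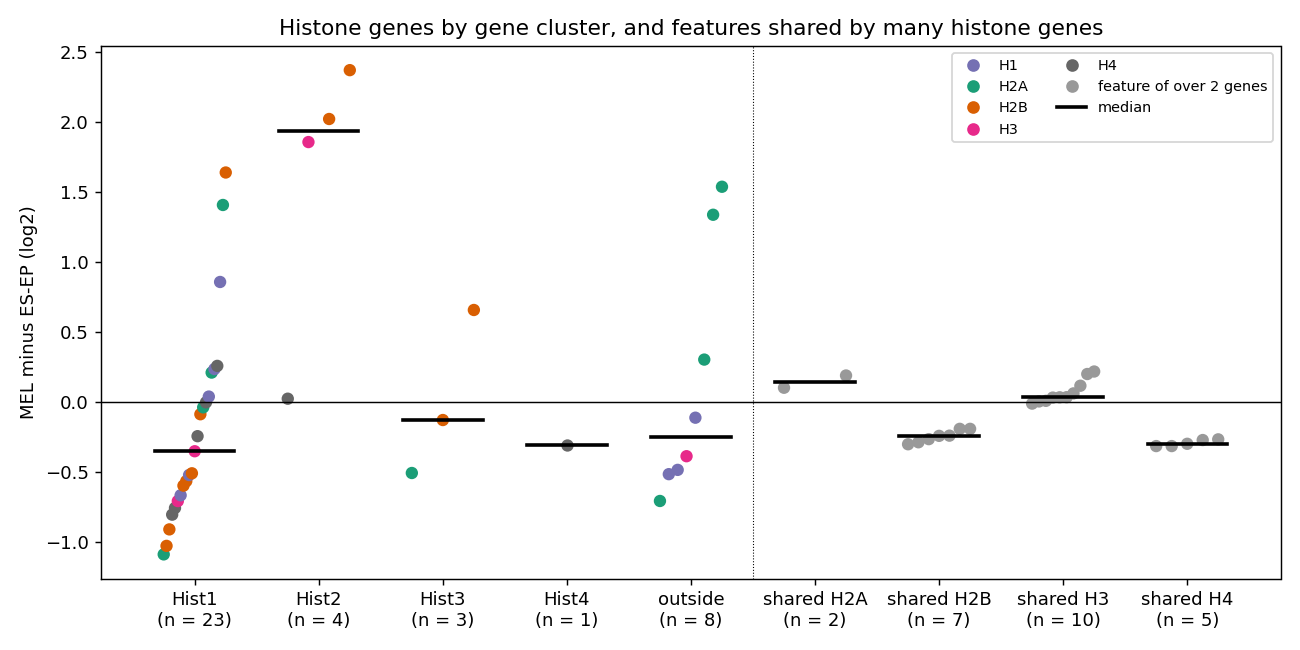
MEL minus ES-EP differences (log2, vertical axis) of the 39 histone genes by gene cluster, left of the dotted line, and of features that many histone genes share, right of it; colours give the class and black bars the median. Of the 4 Hist2 genes, 3 lie between 1.86 and 2.37, and the Hist1 genes spread from -1.09 to 1.64. The shared features, of which those marked H2A also list an H3 gene, have medians of 0.14 (H2A), -0.24 (H2B), 0.03 (H3) and -0.30 (H4).

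The features that many near-identical histone genes share spanned a narrower range than the single genes. The 10 features shared by 12 H3 genes lay between 13.46 and 13.72 on the MEL arrays and between 13.31 and 13.58 on the ES-EP arrays. In limma 0 of 10 passed, 2 had an unadjusted p under 0.05, and the median difference was 0.03 (-0.16 after quantile normalization, 0.10 after centring, 0.14 after cyclic loess, and 0.06 and 0.01 without ES-EP cultures A and B). The 5 features of 11 H4 genes had 12.76 to 12.96 against 13.05 to 13.23, with a median of -0.30, and all 5 were called lower. The 7 features of 14 to 15 H2B genes had 12.09 to 12.60 against 12.25 to 12.86, with a median of -0.24, and 5 were called lower. Over all genes 36.9% were called lower, and the median difference was -0.14. The 2 features of 19 to 20 genes, nearly all of them H2A, differed by 0.10 and 0.19 and did not pass; their median was 0.05 after quantile normalization and 0.25 after cyclic loess. Among these features, 2 pairs held identical values on all arrays: a pair of H4 features, both called lower, and a pair of H2B features, neither called. The 5 H4 calls are therefore not 5 separate readings.

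After cyclic loess the medians were -0.19 for the H4 features and -0.13 for the H2B features. The H4 calls numbered 0 after centring and without either ES-EP culture, and 2 after cyclic loess. The H2B calls numbered 0 after centring, after cyclic loess and without either ES-EP culture, and 2 without MEL culture B. These features were brighter than 98.4% of tested features or more, near the top of the range, and the part of that in their small differences was not tested. Clustered genes of a class are near-identical in sequence, so the values of single clustered genes given here are uncertain where a probe also matches a copy. Of the features of 2 histone genes, that of H2bc6 and H1f4 was lower with a difference of -0.66 (6.98 and 6.92 against 7.65 and 7.57) and that of H4c17 and H4c11 higher by 0.34 (7.63 and 7.74 against 7.41 and 7.28).

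Other histone variants, which the naming rule does not take in, were measured for 7 of 13 listed. Of these, 1 was higher and 3 were lower, against 21.8% and 36.9% of all genes, and the median was -0.24. Cenpa, the H3 variant of centromeres, had 11.13 and 11.18 in MEL and 10.24 and 10.25 in ES-EP and was 1.88-fold higher (log2 0.91, adjusted p 8.43e-05). The next 2 genes were picked after their values were seen. H2aj, a replacement H2A that lies next to H4f16, had 7.92 and 8.01 against 9.59 and 9.62, 3.12-fold lower (log2 -1.64, adjusted p 5.2e-06). Macroh2a2, the paralogue of Macroh2a1, had 5.33 on both MEL arrays and 5.17 and 5.21 in ES-EP and did not pass (0.14, adjusted p 0.177), but passed as higher after quantile normalization (0.32) and cyclic loess (0.36).

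Histone chaperones carry histones to DNA. Of 46 measured of 51 listed, 6 were higher and 25 lower in MEL, against 21.8% and 36.9% of all genes. The median was -0.27 against -0.14 for all genes. The lower calls numbered 17 to 19 under the 3 scalings, where 24.5% to 28.8% of all genes were lower. Nasp, which guards the pool of soluble H3 and H4, had 8.20 and 8.43 in MEL and 9.82 and 9.77 in ES-EP and was 2.79-fold lower (log2 -1.48, adjusted p 2.3e-05). Chaf1b, a subunit of the CAF-1 complex that deposits histones at replication forks, had 9.11 and 9.24 against 10.17 and 10.16 (-0.99, adjusted p 7.91e-05). Chaf1a, its large subunit, differed by -0.28 (adjusted p 0.0256) and lost its call under all 3 scalings and without MEL culture B (-0.24), ES-EP culture A (-0.24) or ES-EP culture B (-0.31), in a range of 0.00764 to 0.176.

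Asf1a and Asf1b, which hand H3 and H4 to CAF-1 and HIRA, were lower with differences of -0.71 and -0.63 (adjusted p 0.000914 and 0.000549). Npm2, the oocyte nucleoplasmin, was lower with a difference of -0.88 at a dim level of 3.87 and 3.75 against 4.80 and 4.58. For the chaperones that place H3.3, Hira had 9.10 and 9.28 against 8.98 and 9.08 and did not pass (0.16, 95% interval -0.07 to 0.39), Daxx was lower with a difference of -0.47 (adjusted p 0.00369) and its partner Atrx was higher by 0.50 (adjusted p 0.00285). Hira passed as higher after cyclic loess (0.26, adjusted p 0.0359; range over the settings 0.0359 to 0.574).

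The 3 widest passing differences upward in this list were those of Vps72, Ruvbl1 and Mis18a. Vps72, the subunit of SRCAP and p400 complexes that binds H2A.Z, had 9.81 and 9.87 in MEL and 8.29 on both ES-EP arrays, 2.92-fold higher (log2 1.55, adjusted p 6.14e-06). Ruvbl1, an ATPase of the same complexes, had 10.31 and 10.27 against 9.31 and 9.23, 2.03-fold higher (log2 1.02, adjusted p 5.33e-05). Srcap and Ep400, after which the complexes are named, were not higher. Srcap did not pass (0.14), and Ep400 was lower (-0.28, adjusted p 0.0375). The Ep400 call was lost after centring, after cyclic loess and without MEL culture A or either ES-EP culture. Ruvbl2 was higher by 0.47, and Znhit1 did not pass (-0.02). Mis18a, which prepares centromeres for the CENP-A that Cenpa encodes, was higher by 0.76 (adjusted p 0.000479).

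The list of genes that transcribe, cut or degrade histone mRNA had 34 measured of 37. Of these, 5 were higher, 17 lower and 12 did not pass, with a median of -0.22. Over all genes 21.8% were higher and 36.9% lower. Sympk was called higher by its brightest feature (0.33), while its dimmer features were lower (-0.59). The higher calls numbered 3 without MEL culture B, 2 without ES-EP culture A and 3 without ES-EP culture B. Slbp, the stem-loop binding protein, had 11.11 and 11.04 in MEL and 11.24 and 11.25 in ES-EP and did not pass (-0.17, 95% interval -0.36 to 0.02), except as lower with a prior that follows intensity (adjusted p 0.011; range over the settings 0.011 to 0.726). Npat, the coactivator of the clusters in S phase, was lower with a difference of -0.54 (8.38 and 8.76 against 9.07 and 9.14, adjusted p 0.0103), and Casp8ap2, which encodes FLASH, with -0.68 (adjusted p 0.00113). Of the U7-specific proteins, Lsm10 was lower with a difference of -0.61 (adjusted p 0.000864) and Lsm11 higher by 0.37 (adjusted p 0.04). The Lsm11 call was lost after quantile normalization, without MEL culture B (0.24) and without ES-EP culture A (0.24).

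Ddx39a, an RNA helicase of mRNA export, had 9.28 and 9.38 against 11.20 on both ES-EP arrays and was 3.65-fold lower (log2 -1.87, adjusted p 2.87e-06). Eri2, an exonuclease family member, was lower with a difference of -1.43, and Cpsf3, the nuclease that cuts the end of histone messages and of polyadenylated ones, with -1.32 (8.80 and 8.89 against 10.14 and 10.18). Cstf2, which encodes a subunit of the cleavage stimulation factor, was the widest difference upward: 10.82 and 10.85 against 9.47 and 9.48, 2.56-fold higher (log2 1.36, adjusted p 1.08e-05). Coil, which encodes the scaffold of Cajal bodies, was higher by 0.47.

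S phase genes were lower in MEL more uniformly than the histone genes in these counts; the difference between the lists was not tested. Of 43 measured of 44, 35 were lower, 1 was higher and 7 did not pass, with a median of -0.74. Over all genes 36.9% were lower and 21.8% higher. Under each of the 3 scalings 32 of the listed genes were lower, against 24.5% to 28.8% of all genes. Rrm2, a subunit of the enzyme that makes deoxyribonucleotides, had 10.01 and 10.26 in MEL and 12.30 and 12.33 in ES-EP (log2 -2.18, adjusted p 3.66e-06). Cdt1, which licenses replication origins, was lower with a difference of -1.98 (adjusted p 2.89e-06), Gins1, part of the replicative helicase, with -1.75, and Pcna, the sliding clamp of DNA polymerases, with -0.59 (adjusted p 0.00083). Rpa3, a subunit of the single-strand binding protein, was the gene that was higher (0.35, adjusted p 0.00826), and it lost the call without ES-EP culture A (0.33, adjusted p 0.0682; range 0.00264 to 0.0682). The part of S phase activity in the histone differences was not tested.

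**Figure D4:**
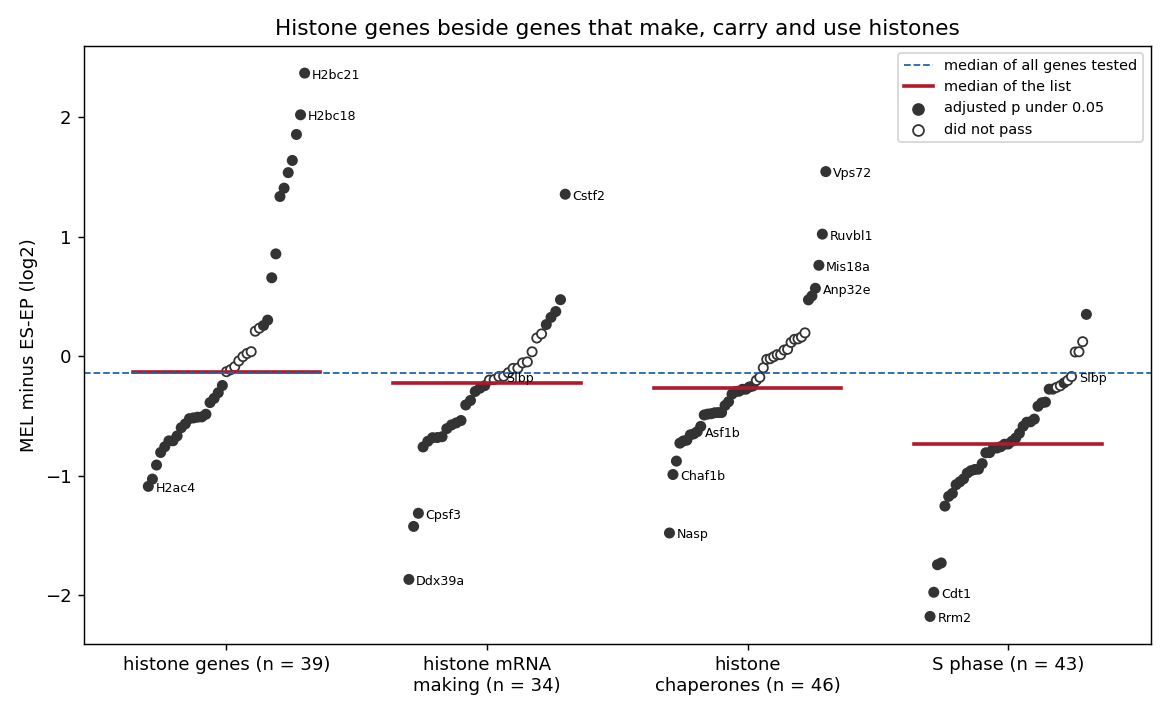
MEL minus ES-EP differences (log2, vertical axis) of the histone genes and of the listed genes that make histone mRNA, carry histones and act in S phase, ordered within each list; filled points passed at an adjusted p under 0.05. Red bars are list medians and the blue dashed line is the median of all genes, -0.14. The histone genes centre on that line, with a median of -0.13, while the S phase genes centre at -0.74.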

How the data were processed

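Per the submitters' processing notes and labels, the authors used RMA, which corrects background, quantile-normalizes probes and gives 1 log2 value per feature; for its version, filters and the array's build, nothing is given in the sources used here. RMA hides changes in total RNA per cell. Of 35557 features, 6613 controls were left out and 28944 tested. Features were named from the platform annotation, updated through RefSeq: 21789 had 1 gene, 1621 several and 5534 none. The brightest feature stood for a gene. Groups were compared with limma 3.58.1 (lmFit, eBayes) in R 4.3.3, with Benjamini-Hochberg adjustment over all tested features, 2 residual and 5.15 prior degrees of freedom. An exact permutation test of 2 against 2 cannot go below a two-sided p of 0.333. With 2 arrays a group, their number limits the precision.

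The members and lists were chosen with earlier results of these data known. Named genes are all replacement-variant and linker members, the 3 widest differences each way per clustered class, and fixed regulators. The 3 widest passing differences each way in the histone mRNA, chaperone and S phase lists were named too. H2aj, Macroh2a2 and the cell type markers were named after their values were seen. So were a few further members and a few further genes of the lists. TATAA and the shared-feature summaries were added after seeing the data. The alternatives were other scalings, priors, filters, a replicate block, a 1.5-fold criterion and leaving out each culture. On simulated data for this comparison with the 28944 features, the fit was tested before use.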

Additional observations from a re-analysis of the deposited data

How the results depend on the processing

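Of the 30 histone genes called, 23 were called in the same direction under each of the 12 other settings that tested them; 7 (H4c8, H3c7, H4c4, H3f3a, H1f8, H4f16 and H2ax) lost the call under at least 1, and none of the 30 changed sign. The count of histone genes lower by at least 2-fold, 2 as reported, was 0 after quantile normalization, 1 after centring, 0 after cyclic loess, 9 with a 1.5-fold criterion and 0 to 2 when each culture was left out. The counts of 11 higher and 19 lower ran from 9 to 12 and from 14 to 19. With the culture letter as a replicate block the counts were 11 higher and 18 lower, H4c4 being the call lost among the histone genes; the deviations of A and B correlated at 0.11 between the groups, over only 2 pairs, so the letters are not taken to pair cultures. The H3 median was 0.57 with dim features left out (2 genes), and the median of shared H3 features was -0.16 after quantile normalization. Signs turned for genes that were not called: H2bc14 was 0.049 after quantile normalization and 0.023 after cyclic loess; H4c9 was 0.0072, 0.061 and 0.088 after quantile normalization, centring and cyclic loess; H2ac8 was 0.19, 0.026 and 0.17 after the same; H1f10 was 0.021 after cyclic loess. With each culture left out, H1f3 ran from -0.041 to 0.12, H4c9 from -0.022 to 0.016 and H2ac8 from -0.14 to 0.062. The causes were not tested. The protein identities planned were not run.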
